A study of Mus musculus with 33 samples.

Results

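The genes described here carry out glycolysis or answer to low oxygen in the mouse frontal bone region, a part of the skull vault. They were taken as 40 symbols: glucose and lactate transporters, the glycolytic enzymes with their isoforms, kinases that steer the pathway, oxygen sensing genes and targets of the low-oxygen response. The 40 symbols matched 41 of the 55401 genes in the count table, because Aldoa had 2 identifiers (ENSMUSG00000030695 and ENSMUSG00000114515) that were kept apart. Poly(A) RNA was sequenced in 3 libraries at each of 11 embryonic stages, 33 in all. Early stages were E8.5, E9 and E9.5, middle stages E10, E10.5 and E11, then E11.5, E12 and E12.5, and late stages E13.5 and E14.5. All libraries carry the same tissue label, and the labels give no strain, genotype or treatment, nor which embryos or pools each library was made from. P-values therefore measure only the spread between these libraries, which may be technical.

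Glycolysis splits glucose into pyruvate in the cytosol and yields ATP without oxygen. Pyruvate then enters the mitochondrion or becomes lactate, which leaves the cell. When oxygen is scarce, prolyl hydroxylases of the Egln family work less, the HIF-1 alpha protein (from Hif1a) escapes destruction, and with its partner ARNT it binds DNA at the core letters ACGTG or GCGTG and raises transcription of many genes of the pathway. HIF-1 alpha is regulated above all as a protein, so its mRNA is not a readout of its activity. The early mouse embryo is known for high glucose uptake and lactate output before its circulation is well established.

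Promoter sequence is shown for genes with a large change at E9 and for Hif1a, whose mRNA moved the other way. The 7 lines give the 250 bases before each RefSeq start on GRCm38.p6, 5′ to 3′ on the gene's strand, with ACGTG or GCGTG, and the reverse complement of either, in capitals.
Ddit4, chr10:59951771-59952020, minus strand: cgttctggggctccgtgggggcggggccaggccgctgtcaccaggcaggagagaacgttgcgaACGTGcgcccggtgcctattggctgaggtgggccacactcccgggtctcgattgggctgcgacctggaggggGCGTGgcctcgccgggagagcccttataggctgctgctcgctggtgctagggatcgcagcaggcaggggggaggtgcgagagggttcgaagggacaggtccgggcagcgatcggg
Adm, chr7:110627407-110627656, plus strand: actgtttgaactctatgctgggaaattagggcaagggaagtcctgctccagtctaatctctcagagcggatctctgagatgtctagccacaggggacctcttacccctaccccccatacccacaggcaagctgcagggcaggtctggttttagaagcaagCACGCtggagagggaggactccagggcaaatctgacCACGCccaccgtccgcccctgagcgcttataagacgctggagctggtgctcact
Bnip3, chr7:138909507-138909756, minus strand: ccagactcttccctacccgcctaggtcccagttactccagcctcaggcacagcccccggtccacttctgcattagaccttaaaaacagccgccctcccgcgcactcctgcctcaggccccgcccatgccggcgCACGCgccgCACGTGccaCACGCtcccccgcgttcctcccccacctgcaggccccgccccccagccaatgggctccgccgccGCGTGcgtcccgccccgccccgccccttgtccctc
Pfkfb3 start 1, chr2:11553930-11554179, minus strand: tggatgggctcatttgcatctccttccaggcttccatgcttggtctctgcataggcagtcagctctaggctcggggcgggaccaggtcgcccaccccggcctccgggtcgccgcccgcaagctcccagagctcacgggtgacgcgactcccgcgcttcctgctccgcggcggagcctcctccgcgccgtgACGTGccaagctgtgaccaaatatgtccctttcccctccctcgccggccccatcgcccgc
Pfkfb3 start 2, chr2:11502091-11502340, minus strand: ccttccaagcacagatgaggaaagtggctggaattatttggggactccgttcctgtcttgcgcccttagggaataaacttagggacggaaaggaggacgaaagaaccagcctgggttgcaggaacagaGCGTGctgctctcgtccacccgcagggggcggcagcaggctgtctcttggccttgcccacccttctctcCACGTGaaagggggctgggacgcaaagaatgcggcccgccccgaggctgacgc
Egln3, chr12:54203875-54204124, minus strand: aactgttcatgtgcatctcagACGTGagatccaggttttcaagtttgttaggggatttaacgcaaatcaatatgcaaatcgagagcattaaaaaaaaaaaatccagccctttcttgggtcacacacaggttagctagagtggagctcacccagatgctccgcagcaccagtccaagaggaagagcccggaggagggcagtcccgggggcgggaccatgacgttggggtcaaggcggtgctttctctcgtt
Hif1a, chr12:73907617-73907866, plus strand: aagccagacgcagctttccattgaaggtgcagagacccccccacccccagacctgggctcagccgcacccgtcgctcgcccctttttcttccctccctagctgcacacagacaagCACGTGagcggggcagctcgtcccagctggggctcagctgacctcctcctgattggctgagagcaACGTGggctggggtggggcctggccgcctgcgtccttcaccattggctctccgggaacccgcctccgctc
Counting both strands, Bnip3 held 5 matches in these bases, the second start of Pfkfb3 and Hif1a held 3 each, Ddit4 and Adm 2 each, and the first start of Pfkfb3 and Egln3 1 each. In Bnip3, Hif1a and the second start of Pfkfb3 a palindromic CACGTG counts as a match on each strand. RefSeq windows of 300 bases, which also take in 50 bases after the start, were found for 38 of the 40 symbols and not used here for Slc2a3 and Ndrg1. At least 1 of the 2 motifs on either strand stood in 75.9% of the 58 windows of these genes and in 43.8% of all 32851 windows. ACGTG alone stood in 48.3% of the windows of these genes and in 19.6% of all windows. A match is a description of the letters and not evidence of binding.

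Library totals ran from 14516518 to 19964404 counts (median 17081223). Levels are given as CPM, a gene's counts relative to the library total after scaling for composition. Of 9 osteoblast markers, Ibsp and Dmp1 were at 0 counts at E9 and E9.5, and the summed level of all 9 was between 2429 and 2618 CPM at E14.5, against 61.8 to 69.2 CPM at E8.5, so the defining markers of bone were low or absent early. Markers of other tissues were present, so that in these bulk samples a change in the mix of cells and a change of RNA per cell cannot be told apart. Libraries labelled E12 stood apart, with a summed level of 16 red cell genes between 11400 and 30570 CPM. Within a stage, library c stood apart at E12 and E13.5. The chi-square of its counts against those of a and b was 125 and 56.7 per gene at E12 and 63.1 and 67 at E13.5. Between a and b it was 1.85 at E13.5 but 21.6 at E12, against at most 11.4 (E12.5, b and c) at the remaining stages. All libraries labelled E12 thus differed from each other, and leaving out library c did not leave a closely matched pair there. Along the first principal component the libraries labelled E11.5 (mean 84.1) lay beyond those labelled E12 (22.1) and E12.5 (41.9), out of the order of their labels.

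All 41 genes passed the filter on low counts and all 41 differed over the stages, as did 95.3% of the 20073 genes tested (adjusted p below 0.05). The mean level was highest at E9 for 17 of the 41 and at E8.5 for 11, against 8.97% and 12.2% of all genes tested. It was highest at E13.5 for 5, at E14.5 for 5, at E12 for 2 and at E11.5 for 1. The shares of all genes tested at these stages were 8.13%, 19.9%, 19.1% and 11%. The range was wide: the highest stage mean was 41.4 times the lowest for the lactate transporter Slc16a3, 37.9 times for the aldolase Aldoc and 20.3 times for the glucose transporter Slc2a3, but 1.48 times for Pfkm and 1.61 times for Hif1a.

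**Figure D1:**
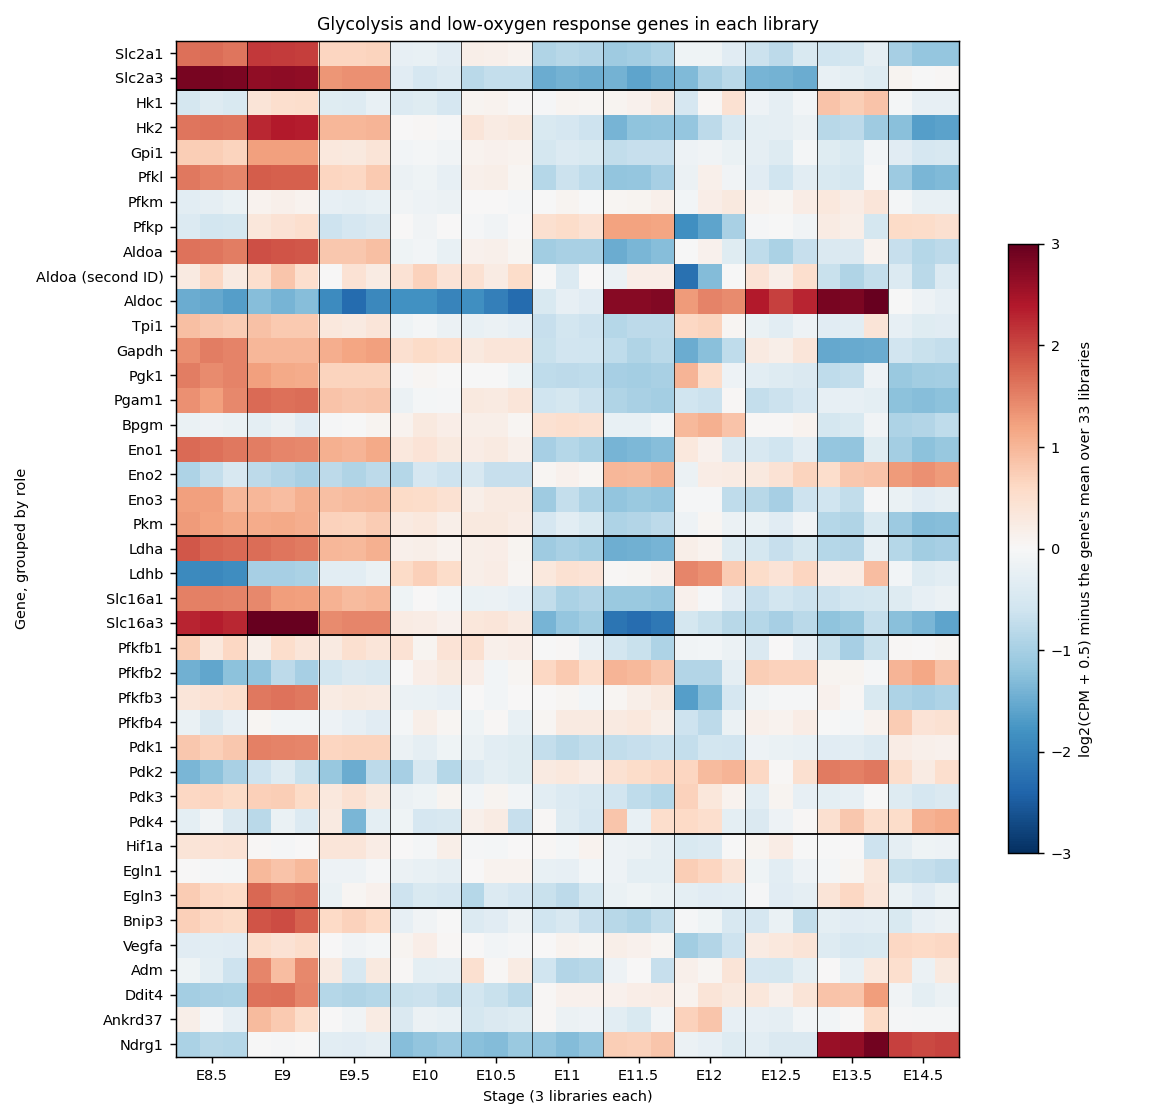
Each column is a library, in order of stage along the horizontal axis, and each row a gene, grouped by role from glucose transporters at the top to low-oxygen targets at the bottom. Colour is log2(CPM + 0.5) minus the gene's mean over 33 libraries, limited to between -3 and 3. The mean is highest at E9 for 17 rows and at E8.5 for 11.

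All 6 genes grouped here as low-oxygen targets and a part of the glycolysis genes were higher at E9 than at E8.5. At E9 against E8.5, 23 of the 41 genes passed in either direction, against 20.2% of all genes tested. Of these, 21 were higher, against 2515 of the 20073 genes tested, and 2 were lower, against 7.66%. With only the 6 compared libraries fitted 9 were lower, as Pgk1, Eno1, Eno3, Pkm, Ldha, Slc2a3 and Slc16a1 then passed too. The share of all genes comes from the fit of all 33 libraries and does not apply to this count. The median log2 fold change was 0.32 over the 41 genes and 0.03 over all genes tested. By role, 6 of 6 low-oxygen targets were higher, as were 2 of 3 oxygen sensing genes, 4 of 8 regulatory kinases, 2 of 4 lactate genes, 6 of 18 glycolytic enzyme rows and 1 of 2 glucose transporters. For 25 of the 41 all 3 E9 libraries lay above all 3 E8.5 libraries, against 24.8% of all genes tested. The fall that followed was broader: at E9.5 against E9, 30 of the 41 were lower, against 11.7% of all genes tested, and 4 were higher, against 11.1%, with a median of -0.59 over the 41 genes and 0.05 over all. In all, 19 of the 41 genes passed as higher at E9 than at both E8.5 and E9.5, against 4.11% of all genes tested. Hif1a alone among the 41 passed as lower at E9 than at both neighbours, against 1.97% of all genes. Both comparisons share the E9 libraries. The genes were chosen with earlier results of these data known, so these counts are not an independent check. Without the stages E11.5 and E12 in the fit, 23 genes were higher and 5 lower at E9 against E8.5, and 21 were above both neighbours. For these counts too, shares of all genes under the same fit are not given. The 4 higher calls at E9.5 against E9 became 1 without E9 library a and 2 without E9 library c, and 1 of the 2 lower calls at E9 against E8.5 was lost without E9 library b.

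**Figure D2:**
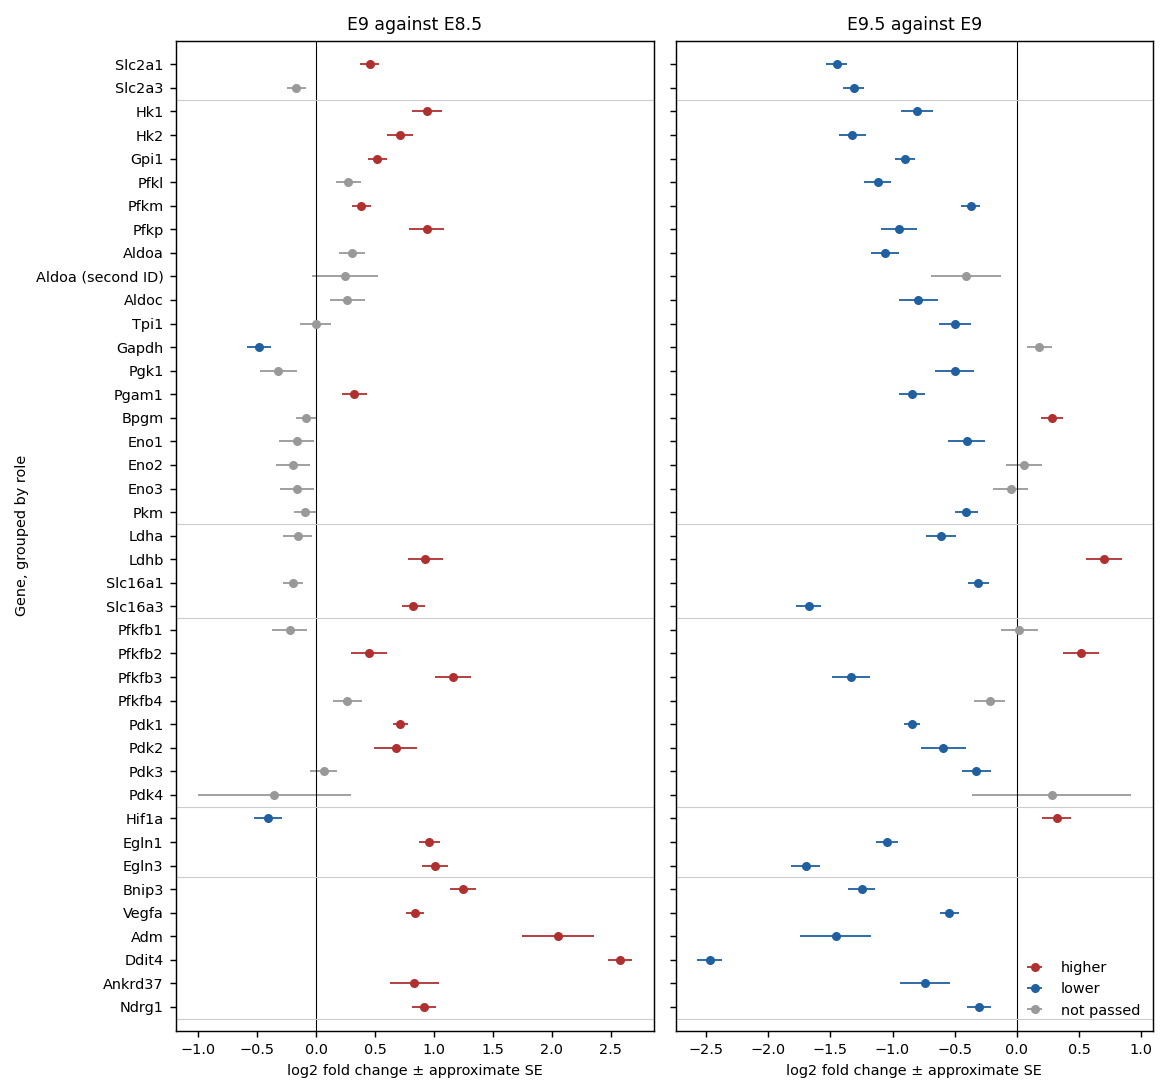
Log2 fold change with its approximate SE on the horizontal axis for each of the 41 genes, grouped by role, for E9 against E8.5 (left) and E9.5 against E9 (right). Red points passed as higher, blue as lower, grey did not pass. All 6 low-oxygen targets are red on the left and blue on the right.

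Ddit4 (ENSMUSG00000020108, GRCm38 chromosome 10, 59949669 to 59951834), an inhibitor of mTORC1 signalling that low oxygen and other stresses induce, changed most. Its level was 44.3, 45.9 and 46.6 CPM at E8.5, 281, 285 and 252 CPM at E9 and 49.5, 47.9 and 50.2 CPM at E9.5. The E9 libraries lay far above those of E8.5 and E9.5 with no overlap. The log2 fold change was 2.58 ± 0.10 at E9 against E8.5 (adjusted p = 1.48e-17) and -2.47 ± 0.10 at E9.5 against E9 (adjusted p = 8e-18). Adm (ENSMUSG00000030790, chromosome 7, 110627661 to 110629820) encodes adrenomedullin, a secreted peptide that widens vessels. It was low throughout, at 1.19, 0.994 and 0.701 CPM at E8.5, 4.53, 2.98 and 4.45 CPM at E9 and 1.71, 0.826 and 1.77 CPM at E9.5. Its E9 libraries lay above the others (2.05 ± 0.31 against E8.5, adjusted p = 1.42e-05), and the low level makes this a less precise value than that of Ddit4.

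Bnip3 (ENSMUSG00000078566, chromosome 7, 138890836 to 138909519) encodes a mitochondrial protein that marks mitochondria for removal. Its libraries held 59.7, 55.9 and 54.4 CPM at E8.5, 136, 142 and 125 CPM at E9 and 55.0, 59.3 and 55.5 CPM at E9.5. The levels at E8.5 and E9.5 overlapped, and the E9 level was 2.37 times that of E8.5 (log2 fold change 1.25 ± 0.11, adjusted p = 2.1e-09). Of its 50-base stretches 47.2% also occur in 6 other genes, which held 90 counts in all libraries, against 24008 for Bnip3. Vegfa, the main growth factor of vessels, had 158, 149 and 157 CPM at E9, against 86.1, 87.0 and 85.9 CPM at E8.5 (0.84 ± 0.08, adjusted p = 3.3e-09). It fell less afterwards, to 111, 102 and 105 CPM at E9.5, so that all E9.5 libraries still lay above those of E8.5. Ankrd37, an ankyrin repeat protein known as a HIF target, rose by 0.83 ± 0.20 on the log2 scale (adjusted p = 0.00369) and Ndrg1, a stress-responsive protein, by 0.91 ± 0.10 (adjusted p = 1.18e-07). At E9.5 against E9 Ankrd37 fell by 0.74 ± 0.20 and Ndrg1 by 0.30 ± 0.10. The call for Ndrg1 at this step was lost under 5 of 15 alternatives.

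At E9 the mRNAs of the oxygen sensors Egln1 and Egln3 rose and that of Hif1a fell, the latter with less certain calls. Egln3 (ENSMUSG00000035105, chromosome 12, 54178981 to 54203860), a prolyl hydroxylase that HIF itself induces, had 18.0, 16.1 and 16.1 CPM at E8.5, 35.6, 32.3 and 33.1 CPM at E9 and 8.95, 10.8 and 11.3 CPM at E9.5. All E9 libraries lay above, and all E9.5 libraries below, those of E8.5 (1.01 ± 0.11 at E9 against E8.5, adjusted p = 1.13e-07). Egln1, the main oxygen sensor among the prolyl hydroxylases, had 76.1, 74.5 and 72.5 CPM at E8.5, 149, 137 and 149 CPM at E9 and 68.0, 68.2 and 74.5 CPM at E9.5 (0.96 ± 0.09 at E9 against E8.5, adjusted p = 6.78e-09). Hif1a (ENSMUSG00000021109, chromosome 12, 73901375 to 73947530) had 199, 204 and 205 CPM at E8.5, 155, 148 and 154 CPM at E9 and 196, 198 and 178 CPM at E9.5. Its E9 libraries lay below all those of E8.5 and E9.5, and its lowest stage mean was at E12. Its fall at E9 (-0.41 ± 0.12, adjusted p = 0.0123) did not pass when libraries were scaled by totals alone (adjusted p = 0.0733) or when E9 library b was left out (adjusted p = 0.0536). Its rise at E9.5 (0.32 ± 0.12, adjusted p = 0.0457) was lost under 10 of 15 alternatives.

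**Figure D3:**
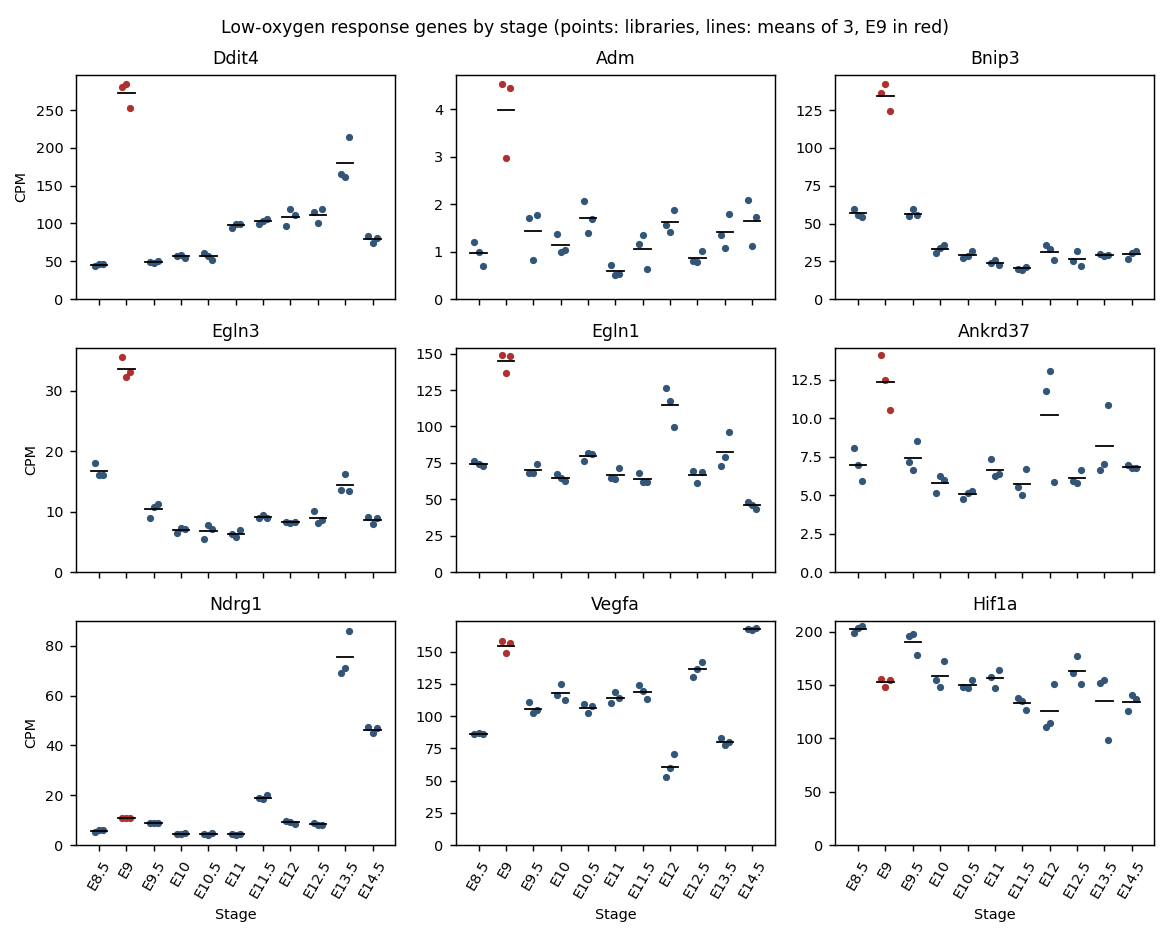
CPM of 9 low-oxygen response genes by stage, each panel with its own axis from 0. Points are libraries, E9 in red, and lines the means of 3. Ddit4, Adm, Bnip3, Egln3, Egln1 and Ankrd37 have their highest mean at E9, Ndrg1 has it at E13.5 and Vegfa at E14.5, and Hif1a is lower at E9 than at E8.5 and E9.5.

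In glucose entry and the steps of glycolysis the response was uneven. Slc2a1, the widely expressed glucose carrier GLUT1, rose at E9 to 1053, 1029 and 1012 CPM, against 753, 764 and 738 CPM at E8.5 (0.46 ± 0.08, adjusted p = 0.000133). Slc2a3, the high-affinity carrier GLUT3, had 739, 751 and 738 CPM at E9, against 836, 840 and 824 CPM at E8.5, and did not pass (-0.17 ± 0.08, adjusted p = 0.149). At E9.5 both fell, Slc2a1 by 1.45 ± 0.08 and Slc2a3 by 1.31 ± 0.08 on the log2 scale. Hexokinases trap glucose in the cell as its phosphate. Hk2, the inducible form, had 395, 431 and 421 CPM at E9, against 254, 255 and 252 CPM at E8.5 (0.71 ± 0.11, adjusted p = 1.94e-05), and Hk1, the constitutive form, rose by 0.94 ± 0.13 from a lower level (adjusted p = 4.17e-06).

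Of the enzymes that follow, Gpi1, the phosphoglucose isomerase, rose at E9 by 0.52 ± 0.08 (adjusted p = 2.15e-05). Phosphofructokinase is the main control point of the pathway, and its platelet-type isoform Pfkp and muscle-type isoform Pfkm rose by 0.94 ± 0.15 and 0.39 ± 0.08. The liver-type isoform Pfkl, much the most abundant at this time, did not pass (0.27 ± 0.11, adjusted p = 0.067), and neither did the aldolase Aldoa (0.31 ± 0.11, adjusted p = 0.0502), although in both all E9 libraries lay above all E8.5 libraries. Pfkl passed as higher under 5 of 15 alternatives and Aldoa under 7 of 15, with adjusted p = 1.84e-06 and 8.6e-08 when only the 6 compared libraries were fitted in edgeR. The second Aldoa identifier did not pass either. Pgam1, the phosphoglycerate mutase, had a log2 fold change of 0.32 ± 0.10 (adjusted p = 0.0269), a call that was lost under 6 of 15 alternatives. Among these were the fits without E8.5 library a (adjusted p = 0.097) or b (0.13) and without E9 library a (0.0656), b (0.0623) or c (0.0706). The steps in between and after showed no passing rise: the log2 fold change was 0.00 ± 0.13 for the isomerase Tpi1, -0.32 ± 0.16 for the kinase Pgk1, -0.17 ± 0.15 for the enolase Eno1 and -0.10 ± 0.09 for the pyruvate kinase Pkm. Gapdh, the dehydrogenase of the pathway, fell by 0.49 ± 0.10 (adjusted p = 0.00075), but its row held only 26186 counts in all libraries against 64362 in 223 genes that share 50-base stretches with it, so that its value is uncertain. Shared stretches also make Pgk1 (53.9% of them), Pgam1 (36.2%), Eno1 (26.0%), Pkm (25.8%), Ldhb (21.0%), Pfkfb2 (17.3%), Ankrd37 (17.0%) and Gpi1 (15.8%) uncertain. Without these genes, Gapdh and Bnip3 (47.2%), 15 of the remaining genes were higher at E9 against E8.5 and 1 was lower.

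Lactate genes split as well. Slc16a3, the exporter MCT4, had 564, 548 and 545 CPM at E9, against 308, 322 and 305 CPM at E8.5 (0.83 ± 0.10, adjusted p = 5.37e-07), and fell by 1.68 ± 0.10 at E9.5 (adjusted p = 2.69e-13). Slc16a1, the carrier MCT1, did not pass at E9 (-0.19 ± 0.09, adjusted p = 0.112). Ldha, the dehydrogenase subunit that favours lactate formation, had a log2 fold change of -0.16 ± 0.12 at E9 (adjusted p = 0.396) and fell by 0.61 ± 0.12 at E9.5. Ldhb, the subunit that favours pyruvate formation, rose at both steps: its libraries held 49.1, 48.1 and 50.1 CPM at E8.5, 92.8, 91.7 and 95.9 CPM at E9 and 147, 149 and 160 CPM at E9.5.

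Among the regulators, Pfkfb3 (ENSMUSG00000026773, chromosome 2, 11471433 to 11554077) makes fructose 2,6-bisphosphate, an activator of phosphofructokinase. It had 63.8, 67.9 and 71.1 CPM at E8.5, 150, 154 and 150 CPM at E9 and 59.2, 61.1 and 59.9 CPM at E9.5. The E9 libraries lay above the rest with no overlap (1.16 ± 0.15 at E9 against E8.5, adjusted p = 2.27e-06, and -1.33 ± 0.15 at E9.5 against E9, adjusted p = 1.59e-07). Pfkfb2, the heart-type isoform, rose at both steps, by 0.45 ± 0.15 (adjusted p = 0.0348) and 0.52 ± 0.14 (adjusted p = 0.00825), and Pfkfb1 and Pfkfb4 passed at neither. The first call for Pfkfb2 was lost under 5 of 15 alternatives, among them without E8.5 library a (adjusted p = 0.125) or b (0.143) and without E9 library b (0.192) or c (0.0722), and the second without E9 library a (0.0678). Pyruvate dehydrogenase kinases restrain the use of pyruvate by pyruvate dehydrogenase inside the mitochondrion. Pdk1, a known HIF target, had 261, 260 and 256 CPM at E9, against 162, 150 and 162 CPM at E8.5 (0.71 ± 0.06, adjusted p = 1.86e-09). Pdk2 also rose, by 0.68 ± 0.18 (adjusted p = 0.0081), a call lost without E8.5 library a (adjusted p = 0.0636) and without E9 library b (0.0565), whereas Pdk3 and Pdk4 did not pass.

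Other genes of the response were counted from lists of genes outside the 40 symbols. These lists were also chosen with earlier results of these data known, so their counts are not an independent check. Of 27 other low-oxygen targets 17 were higher and 1 lower at E9 against E8.5 (median 0.55), against 2515 of the 20073 genes tested higher and 7.66% lower (median 0.03). In the same list 2 were higher and 15 lower at E9.5 against E9 (median -0.42), against 11.1% and 11.7% of all genes tested (median 0.05). Among the risers the largest changes were those of Bhlhe40 (2.76 ± 0.22) and Bhlhe41 (1.62 ± 0.28), transcriptional repressors of the clock and stress response, Ppp1r3c (2.21 ± 0.21), a glycogen-targeting subunit, and Stc2 (1.11 ± 0.16), a secreted glycoprotein. Tfrc, the transferrin receptor, was the gene that fell (-0.40 ± 0.10). Of 11 other oxygen sensing genes 4 were higher at E9: Epas1, which encodes HIF-2 alpha, by 1.18 ± 0.16, Hif3a by 0.85 ± 0.17, Arnt2 by 0.47 ± 0.16 and Arnt by 0.35 ± 0.13. Of 14 tested genes for other isoforms of the pathway 5 were higher, the pyruvate kinase Pklr of liver and red cells most (1.42 ± 0.19, adjusted p = 1.96e-06).

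Markers of other cells and of handling moved over the same step, at which 2515 of the 20073 genes tested were higher and 7.66% lower. Of 10 handling and stress genes 8 were lower at E9 than at E8.5, with a summed level of 270.5 to 276.3 CPM at E9, against 592.6 to 603.2 CPM at E8.5. Of 16 red cell genes 8 were higher, with sums of 4730 to 4982 CPM at E9, against 2879 to 3134 CPM at E8.5, and none of them was at 0. Of 9 neural progenitor genes 7 were higher, with sums of 1014 to 1025 CPM at E9, against 749 to 774 CPM at E8.5. Of 8 neuron genes 4 were higher, with sums of 242.6 to 249.1 CPM at E9, against 155.1 to 161.1 CPM at E8.5, and of 6 macrophage genes 3 were higher, with sums of 1.78 to 3.003 CPM at E9, against 0.3507 to 1.136 CPM at E8.5. At E9.5 the red cell sum was 5605 to 6007 CPM and the neuron sum 415.8 to 439.6 CPM. The handling sum was 204.3 to 213.3 CPM and the neural progenitor sum 953.6 to 964.2 CPM. Of the 9 neural progenitor genes 5 were lower and 2 higher than at E9, against 11.7% and 11.1% of all genes tested. The part of these markers in the changes at E9 was not tested.

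The balance of isoforms shifted over the course. Shares are of the family's level per kilobase of exonic length, given as mean ± SD of 3 libraries, with no test of the share itself. Hk2 made up 48.4% ± 1.9 of the Hk1 and Hk2 level at E14.5, against 90.9% ± 0.4 at E8.5. It was 89.5% ± 0.3 at E9, so that the rise of both hexokinases at E9 left the balance nearly as it was, and was lowest at E13.5, at 41.6% ± 3.3. Per kilobase Hk2 stood at 4.84 ± 0.77 CPM at E14.5, against 42.5 ± 0.3 CPM at E8.5, while Hk1 stood at 5.13 ± 0.41 CPM, against 4.24 ± 0.21 CPM. Hk2 fell by 3.14 ± 0.12 on the log2 scale (adjusted p = 6.34e-20), and Hk1 did not pass (0.28 ± 0.13, adjusted p = 0.055). Hk1 passed as higher under 8 of 15 alternatives, with adjusted p = 0.000191 when edgeR scaled by totals alone and 0.0153 with DESeq2, and had a negative value once a trend with gene length was removed.

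Phosphofructokinase changed likewise. Pfkl made up 40.8% ± 1.1 at E14.5, against 84.9% ± 0.9 at E8.5, and Pfkm 47.5% ± 0.4, against 13.4% ± 0.9. Pfkl fell by 2.79 ± 0.11 (adjusted p = 3.01e-19) and Pfkm did not pass (0.09 ± 0.08, adjusted p = 0.305), although it passed as lower once a trend with gene length was removed (-0.41, adjusted p = 9.17e-06) and as higher with scaling by totals alone (0.52, adjusted p = 2.34e-05). Pfkp rose by 1.05 ± 0.15 (adjusted p = 1.98e-07) and had 11.8% ± 0.7 of the family at E14.5, against 1.71% ± 0.06 at E8.5. Among enolases, which form phosphoenolpyruvate, Eno1 kept the largest share throughout, with 79.6% ± 0.7 at E14.5, against 92.9% ± 0.3 at E8.5. Eno2, the neuron-enriched form, had 5.58% ± 0.53 at E14.5, against 0.221% ± 0.048 at E8.5, and its own level was 24.8, 26.3 and 24.8 CPM at E14.5, against 4.91, 5.82 and 6.90 CPM at E8.5, while Eno1 fell by 2.78 ± 0.16. Eno3, the muscle-enriched form, fell by 1.44 ± 0.15, yet its share was 14.9% ± 0.2 at E14.5, against 6.84% ± 0.38 at E8.5.

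**Figure D4:**
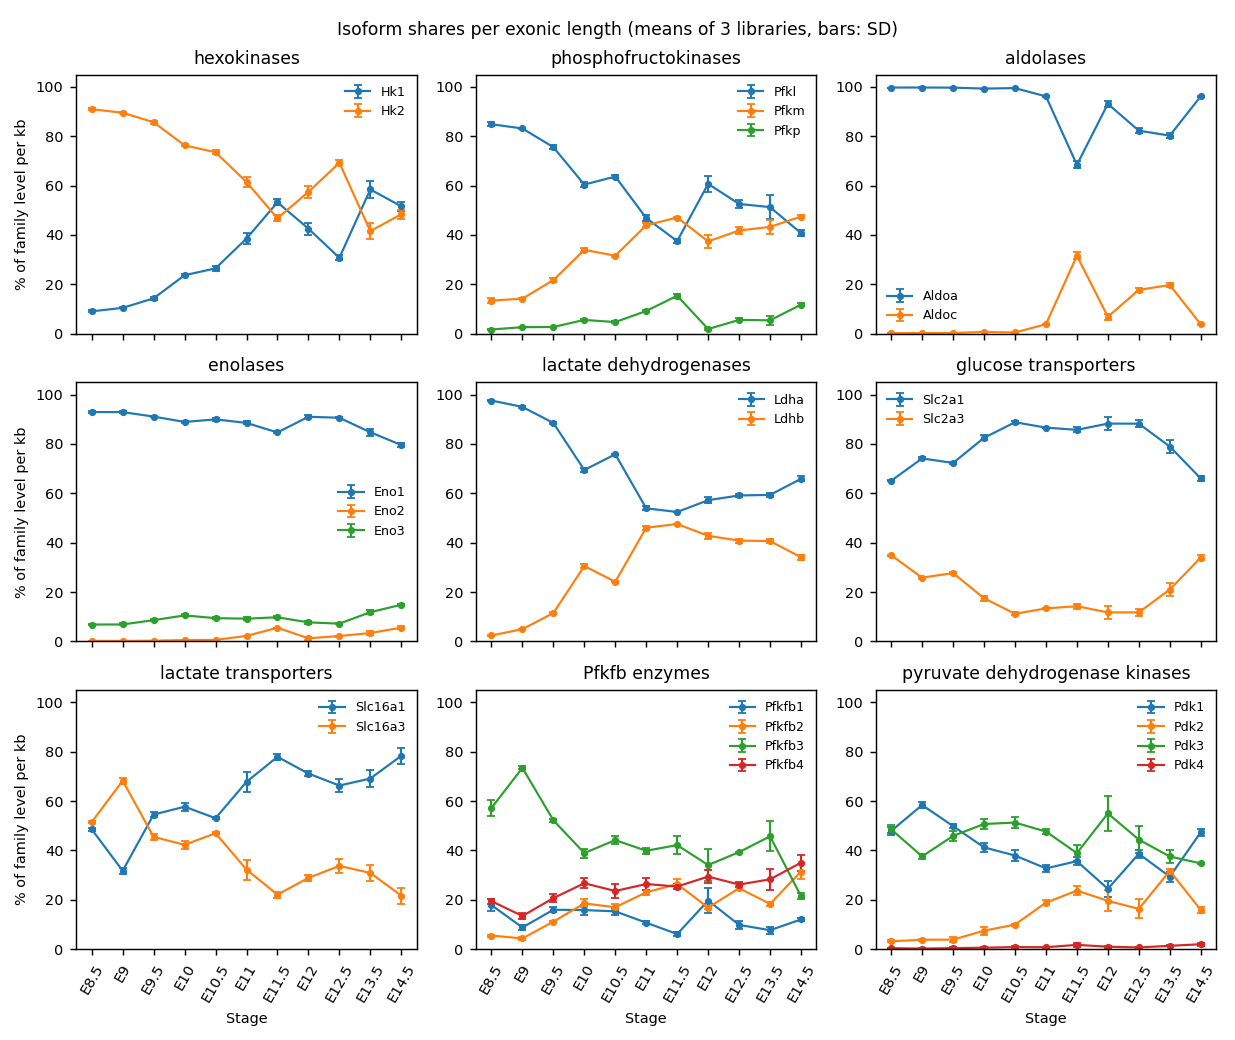
Share of each isoform in its family's summed level per kilobase, in percent, by stage. Points are means of 3 libraries and bars SDs. Hk2, Pfkl and Ldha give up share to Hk1, Pfkm and Ldhb, and Pfkfb3 and Slc16a3 are highest at E9, at 73.4% and 68.3%.

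The Pfkfb family had its sharpest balance at E9. Pfkfb3 made up 57.2% ± 3.4 at E8.5, 73.4% ± 0.6 at E9 and 52.2% ± 0.6 at E9.5, and 21.5% ± 1.2 at E14.5. At E14.5 Pfkfb4 (35.03% ± 3.21) and Pfkfb2 (31.4% ± 3.0) exceeded it. Slc16a3 also had its largest share of the lactate carriers at E9, with 51.5% ± 0.5 at E8.5, 68.3% ± 1.2 at E9 and 21.7% ± 3.3 at E14.5. Pdk1 also had its largest share at E9, 58.4% ± 1.3, but at E14.5 it stood at 47.4% ± 1.4, against 47.9% ± 1.5 at E8.5, within the spread. Ldha made up 65.9% ± 1.0 at E14.5, against 97.6% ± 0.1 at E8.5, a change of -31.71 percentage points that was -18.57 in shares of counts not divided by length. For Eno1 the change was -13.37 per length and -8.325 in shares of counts. Slc2a3 was back near its start at E14.5 (34.0% ± 0.9, against 34.9% ± 0.2 at E8.5) after 11.2% ± 0.6 at E10.5. Aldoa held 99.7% of the aldolase level at E8.5, 68.4% ± 1.4 at E11.5, where Aldoc took the rest, and 96.2% ± 0.2 at E14.5.

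By E14.5 most of the pathway was far lower than at E9. At E14.5 against E9, 30 of the 41 genes were lower, against 33% of all genes tested, and 8 were higher, against 38.4% (median -1.28 over the 41 and 0.12 over all). At E14.5 against E8.5, 26 were lower, against 33.5%, and 12 were higher, against 41.1% (median -0.93 and 0.16). For 12 of the 41 all 3 E14.5 libraries lay above all 3 E8.5 libraries, against 43.8% of all genes tested. Slc16a3 had the largest change, with 26.3, 24.1 and 20.6 CPM at E14.5, against 564, 548 and 545 CPM at E9 (log2 fold change -4.54 ± 0.12, adjusted p = 6.87e-24). Hk2 fell by 3.85 ± 0.12, Slc2a1 by 3.20 ± 0.09, Pfkl by 3.06 ± 0.11 and Pgam1 by 2.94 ± 0.11. Per kilobase Pkm had the highest level of the 41 at E9 and E14.5, at 272 ± 23 CPM at E14.5, against 1364 ± 29 CPM at E9. Ldha came next at E9 (1138 ± 42 CPM), ahead of Aldoa (647 ± 14 CPM), whereas Tpi1 (477 ± 17 CPM) and Eno1 (471 ± 15 CPM) lay within their spread of each other. Stretches shared with other genes make the levels of Gapdh, Pgk1, Eno1 and Pkm uncertain, and with them this order.

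**Figure D5:**
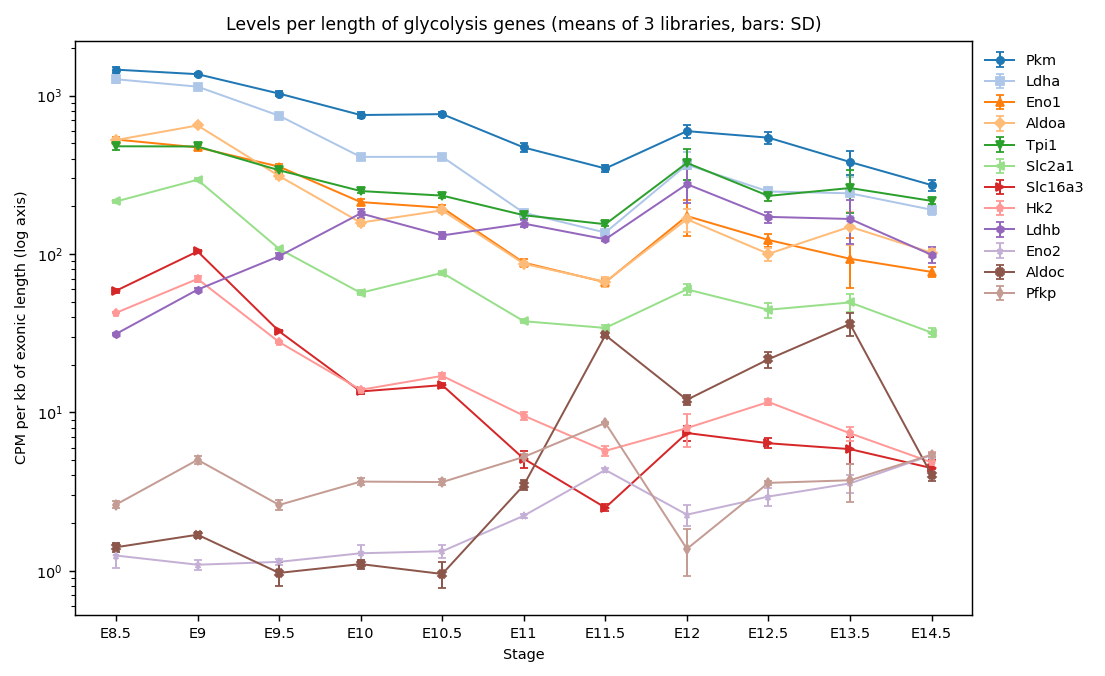
CPM per kilobase of exonic length for 12 glycolysis genes by stage, on a log axis. Points are means of 3 libraries and bars SDs. Pkm has the highest mean at every stage.

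The 8 genes above E9 at E14.5 were Aldoc, Eno2, Ldhb, Pfkfb2, Pfkfb4, Pdk2, Pdk4 and Ndrg1. Pfkfb2 had 35.8, 39.4 and 32.7 CPM at E14.5, against 7.42, 9.87 and 8.49 CPM at E9 (2.06 ± 0.14, adjusted p = 4.39e-14). Ndrg1 (ENSMUSG00000005125, chromosome 15, 66929318 to 66969640) had 47.3, 44.9 and 47.0 CPM at E14.5, against a mean of 10.9 ± 0.1 CPM at E9 (SD, n = 3 libraries; 2.08 ± 0.09, adjusted p = 1.51e-18). Its highest mean was at E13.5, at 69.1, 71.0 and 86.0 CPM, and at E13.5 against E12.5 its log2 fold change was 3.17 with all libraries and 3.07 without E13.5 library c. Vegfa had its highest mean at E14.5, at 167, 167 and 168 CPM, and did not pass against E9 (0.12 ± 0.08, adjusted p = 0.167), but passed as higher under 6 of 15 alternatives, with 0.51 and adjusted p = 5.31e-05 for scaling by totals alone, and as lower once a trend with gene length was removed (-0.28, adjusted p = 0.000334). The low-oxygen genes thus did not move as a block at the late stages: at E14.5 against E9 Egln1, Egln3, Bnip3, Adm, Ddit4 and Ankrd37 fell, while Ndrg1 rose. Markers of skeletal muscle moved over the same span, with summed levels of 406 to 450 CPM at E14.5, against 3.768 to 4.997 CPM at E9, and proliferation genes summed to 1530 to 1598 CPM at E14.5, against 3988 to 4075 CPM at E9. Their part in these changes was not tested. Relative to scaling by composition, scaling by totals alone moved the median of all genes at E14.5 against E9 to 0.51. With it 27 of the 41 were lower and 10 higher, and shares of all genes under it are not given.

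Between these ends the decline ran in steps. At E10 against E9.5, 25 genes passed in either direction, against 26.7% of all genes tested, and 22 of them were lower, against 12.3%. E10.5 against E10 showed little, with 2 lower and 4 higher (2.74% and 5.73%). At E11 against E10.5, 20 were lower and 8 higher (17.3% and 19.2%), and at E11.5 against E11, 13 were lower and 5 higher (12.3% and 10.7%). With scaling by totals alone the 13 lower became 6, the 4 higher at E10.5 became 2 and the 3 higher at E10 became 6. The libraries labelled E12 turned this round, with 23 higher and 10 lower than at E11.5 (33.3% and 35.6%). At E12.5 against E12, 18 were lower and 12 higher (31% and 32%), at E13.5 against E12.5, 10 lower and 11 higher (25.9% and 27.2%), and at E14.5 against E13.5, 20 lower and 10 higher (26.9% and 24%). Totals alone gave 16 lower at E12 against E11.5 and 11 lower at E12.5 against E12. Without E12 library c, 21 were higher and 12 lower at E12 against E11.5, and without E13.5 library c, 9 were higher and 12 lower at E13.5 against E12.5 and 11 higher and 17 lower at E14.5 against E13.5.

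Single isoforms stood out around the libraries labelled E11.5 and E12. Pfkp had 13.6, 16.5 and 25.2 CPM at E12, its lowest mean, against 116, 116 and 113 CPM at E11.5, its highest, with a log2 fold change of -2.63 ± 0.15 at E12 against E11.5 (adjusted p = 7.19e-14) and of -3.01 ± 0.15 without E12 library c. Aldoc, the brain-enriched aldolase, had 99.4, 99.3 and 102 CPM at E11.5, against a mean of 11.3 ± 0.8 CPM at E11 (SD; log2 fold change 3.15 ± 0.12, adjusted p = 1.08e-17). It then had 36.1, 41.6 and 39.9 CPM at E12 and 107, 106 and 141 CPM at E13.5, before 14.3, 13.1 and 12.1 CPM at E14.5. Bpgm, which makes the 2,3-bisphosphoglycerate of red cells, had 125, 134 and 116 CPM at E12, against 54.6, 54.3 and 60.6 CPM at E11.5 (1.14 ± 0.09, adjusted p = 8.71e-12), in the libraries with the highest red cell sums. Neuron markers summed to 2870 to 2939 CPM at E11.5, against 2732 to 2766 CPM at E11. The part of these other cells was not tested.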

How the data were processed

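Bulk RNA-seq of the mouse frontal bone region was measured in 33 libraries, 3 at each of 11 stages. The deposited values are raw read counts per gene, not normalized. Reads were processed with cutadapt 1.9.1, HISAT2 2.0.1, HTSeq 0.6.1 and the GRCm38 genome, per the submitters' processing notes, with annotation release and strand setting not given in the sources used here. Symbols and coordinates came from a GENCODE annotation of GRCm38, and exonic lengths were those deposited with the counts. Without a known strand setting reads of a gene and its antisense partner cannot be told apart. Groups are the stages of the labels. The column letters a, b and c only name libraries.

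Genes passing edgeR's filter on low counts (20073) were fitted with edgeR 4.0.16 (R 4.3.3, limma 3.58.1) by the quasi-likelihood test in 1 model of all 33 libraries, with TMM factors between 0.797 and 1.18 and 22 residual degrees of freedom. P-values were adjusted over all genes tested (Benjamini-Hochberg, threshold 0.05). Shares of all genes called are from this model, also where a count under an alternative stands near them. The adjusted p-values in the report come from this test. CPM are TMM-scaled, a level per kilobase is CPM divided by exonic length, and the SE of a log2 fold change is approximate, taken from the test statistic. Libraries of a stage differed by more than sampling noise (chi-square per gene at least 1.85). Counts were also simulated with 1 mean per gene over all stages, except for 67, 67 and 66 genes changed 1.5-fold, 2-fold and 4-fold at E9. For simulated E9 against E8.5 (19057 genes tested) the test recovered 43.3%, 83.6% and 100% of these changes, with 6 false calls. Many more genes changed in the data (20.2% called at this step), so these rates may not hold there.

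The members and all gene lists were chosen with earlier results of these data known. All 40 symbols are described. Of each pathway list up to 4 genes that passed are named, those with the largest change, and marker lists are given by counts and sums. Alternatives were other size factors, filters, a length trend, DESeq2 1.42.0, the 6 libraries alone, a replicate block and leaving out each library. Chosen after seeing the data were fits without the E11.5 and E12 stages, step counts without E12 library c or E13.5 library c, and counts without genes that share over 10% of their 50-base stretches with other genes. A planned comparison of protein sequences was not run.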

Additional observations from a re-analysis of the deposited data

How the results depend on the processing

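All 41 genes kept a difference over the stages without any 1 library. Without 1 library at a time, E9 against E8.5 gave 18 to 21 higher and 1 to 2 lower (1 without E9 library b), E9.5 against E9 gave 1 to 3 higher (1 without E9 library a and 2 without E9 library c) and 25 to 28 lower, E14.5 against E9 gave 8 higher and 29 to 30 lower, E14.5 against E8.5 gave 11 to 12 higher and 26 lower, and 17 to 19 genes were above both neighbours at E9. The 2 lower genes at E9 against E8.5 became 1 with totals alone, 4 with the length trend removed, 9 with only the 6 libraries, 5 without the E11.5 and E12 stages and 1 without near-copy genes. The 4 higher genes at E9.5 against E9 became 2 without a filter and 2 without near-copy genes. With totals alone, higher calls were 6 at E10 against E9.5 and 2 at E10.5 against E10, and lower calls were 6 at E11.5 against E11, 16 at E12 against E11.5 and 11 at E12.5 against E12. With the replicate block on the column letter, E10.5 against E10 had 1 lower call, and 21 higher and 2 lower were called at E9 against E8.5. Libraries with the same letter share only a name: over 12 contrasts their deviations correlated between -0.0846 and 0.18, and in 0 of 12 were all 3 letters over 0.1. In the 4 contrasts with E8.5 or E9 the range was -0.0208 to 0.0297. Without E12 library c, E12.5 against E12 gave 12 higher and 17 lower. The cause of these changes was not tested.

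The change in isoform share (percentage points, E14.5 against E8.5) ranged without 1 library from -43.62 to -41.75 for Hk2, -44.71 to -43.57 for Pfkl, -3.678 to -3.456 for Aldoa, -13.71 to -12.98 for Eno1, -32.04 to -31.16 for Ldha, -1.395 to -0.4889 for Slc2a3, -31.41 to -28.13 for Slc16a3, -37.4 to -34.03 for Pfkfb3 and -1.426 to 0.1938 for Pdk1, which changed sign without E14.5 library c. Shares of counts, not per length, gave -47.92 for Hk2, -3.954 for Aldoa, -8.325 for Eno1, -18.57 for Ldha and -41.0 for Pfkfb3.

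Of 2458 values of single genes under alternatives, 2302 kept direction and call, 79 lost the call, 49 gained it and 28 changed sign. Most sign changes were of values near 0. Ankrd37 at E14.5 against E8.5 was 0.033 with DESeq2's size factors, 0.032 with DESeq2, 0.41 with totals alone, 0.012 without a filter, 0.043 with a stricter filter and between -0.14 and 0.10 without 1 library. Tpi1 at E9 against E8.5 was 0.039 with totals alone, 0.036 without a filter, 0.011 with a stricter filter, and without 1 library between -0.035 and 0.021 (0.021, 0.0085 and 0.016 without E8.5 library a, E9 library b and E9 library c). Pfkfb1 at E9.5 against E9 was -0.031 without a filter, -0.028 with a stricter filter, -0.081 with the length trend removed, and without 1 library between -0.079 and 0.12 (-0.046 without E9.5 library b). Pdk4 at the same step was between -0.61 (without E9.5 library a) and 0.83 without 1 library (-0.036 without E9 library a), Eno3 was 0.031 with totals alone and Eno2 was -0.033 with the length trend removed. At E14.5 against E9, totals alone gave Pfkm 0.093, Pfkfb1 0.050 and Hif1a 0.21, and removing the length trend gave Pfkp -0.30 and Vegfa -0.28, both passing (adjusted p = 0.000543 and 0.000334 by edgeR), while Vegfa passed as higher under 6 of 15 alternatives. At E14.5 against E8.5 the length trend gave Hk1 -0.16 and Pfkm -0.41 (adjusted p = 9.17e-06 by edgeR), whereas totals alone gave Pfkm 0.52 (adjusted p = 2.34e-05 by edgeR). Low counts limit Adm and Pdk4.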

Other observations

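Pathways beside glycolysis were counted from lists of the same kind. In the pentose phosphate pathway, which makes ribose and NADPH from glucose phosphate, 3 of 9 genes were lower at E9 than at E8.5: Prps1 (-0.52 ± 0.07), Rpe (-0.35 ± 0.08) and Prps2 (-0.31 ± 0.10). Of all 20073 genes tested 7.66% were lower and 2515 were higher at this step. At E14.5 against E9, 6 of the 9 were lower, against 33% of all genes tested, the transketolase Tkt most, at 216 CPM at E14.5, against 788 CPM at E9 (-1.87 ± 0.11, adjusted p = 1.6e-15 by edgeR). Of 9 genes for the entry of pyruvate into mitochondria and its use there, 3 were lower at E9 than at E8.5. Among these was the pyruvate dehydrogenase subunit Pdha1 (-0.38 ± 0.05). The 1 higher gene was the pyruvate dehydrogenase phosphatase Pdp2, at 26.6 CPM at E9, against 13.6 CPM at E8.5 (0.97 ± 0.09, adjusted p = 9.65e-09 by edgeR). Mpc1, a subunit of the mitochondrial pyruvate carrier, was higher at E14.5 than at E9, at 9.76 CPM, against 1.88 CPM (2.37 ± 0.16). Of 3 tested genes of gluconeogenesis, Pck2 (0.47 ± 0.12) and Pcx (0.35 ± 0.12) were higher at E9 than at E8.5, and all 3 were lower at E9.5 than at E9, against 11.7% of all genes tested.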
